A study of Mus musculus with 8 samples.

Results

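The genes described here make, sense and export cholesterol and make fatty acids. They form a list of 37 genes, read from the gene table by exact symbol. The table has 18438 genes, 33 of the 37 among them, and 31 reached a normalized read number of at least 10 in at least 2 of the 8 libraries and were tested together with all 13358 genes that did so. The weakest gene kept was Acat2, between 4.98 and 94.3 over the libraries. Me1 (at most 3.52) and Abcg1 (at most 2.06) stood below the minimum in every library and were not tested. Scd1, Scd2, Fads1 and Fads2 were not analysed here. By role, the tested genes comprised 18 enzymes of the mevalonate and sterol pathway, 5 genes of its control and of sterol transport, 5 of fatty acid synthesis and 3 of the liver X receptor (LXR) and sterol efflux arm.

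RNA came from T cells sorted out of the spleens of C57BL/6 mice on day 7 of experimental autoimmune encephalomyelitis (EAE), a model of multiple sclerosis in which all 4 groups had been immunized against the myelin protein MOG. Regulatory T cells (Treg) were sorted as CD4+CD25hiYFP+ and effector T cells (Teff) as CD4+CD25-YFP-, from mice labelled WT or IRE1a-/- (KO), with 2 libraries for each of Treg WT, Treg KO, Teff WT and Teff KO. IRE1a, the product of Ern1, is a sensor of unfolded protein in the endoplasmic reticulum (ER) that splices Xbp1 mRNA. The labels do not say which promoter drives YFP or any Cre recombinase, which cells carry the deletion, how old the mice were, or whether each library stands for its own mouse. The p-values therefore measure only the spread between libraries, which may be technical.

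Cholesterol is built from acetyl-CoA through mevalonate, isoprenoids, squalene and lanosterol. The genes of this pathway are switched on together by the transcription factor SREBP2, and those of fatty acid synthesis mainly by SREBP1. Both factors are held in the ER by SCAP and INSIG proteins while sterol is plentiful and are released when it falls. LXR works in the other direction: oxidized sterols activate it, and it induces the exporters ABCA1 and ABCG1 and the ubiquitin ligase MYLIP, which limits the uptake of lipoprotein cholesterol. T cells raise sterol and fatty acid synthesis when they are activated and grow, and the mevalonate pathway is known to be needed for the suppressive function of Treg.

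The 250 bases before the start of a gene were read from the RefSeq promoters of GRCm38.p6 for the 27 of the 31 tested genes with an entry, and searched on both strands for motifs of these factors. Fdps, Sqle, Fdft1 and Stard4 had no entry, so their promoters were not searched. The core of the sterol regulatory element, TCACNCCAC, was found before 1 gene, Hmgcs1, and in 1.05% of all 32851 promoters; there its letters overlap none of the other motifs. The CCAAT box (CCAAT), at which a partner of SREBP, NF-Y, binds, was present before 20 of 27 genes (74.1%), against 40.5% of the 10232 tested genes with a promoter and 33.8% of all promoters. The GC box (GGGCGG) of SP1 was present before 22 (81.5%, against 60.7% and 32.7%) and the E-box (CACGTG) before 6 (22.2%, against 9.38% and 6.02%). The LXR direct repeat, AGGTCA on both sides of NNNN, was found before 0 of the 27 and in 0.0152% of all promoters. These matches describe letters in a short window and no binding was measured.

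Hmgcs1 is shown because it holds the sterol core, and Abca1 and Mylip, the genes of the list that were called higher in KO below, were chosen after their values were seen. Each line runs 5′ to 3′ on the strand of the gene and ends 1 base before its RefSeq start, and capitals mark the motifs above, on either strand. The Hmgcs1 stretch is chr13:119690101-119690350 (plus strand), in which the core begins 137 bases before the start and CCAAT boxes begin 237, 176 and 45 bases before it. The Abca1 stretch is chr4:53159896-53160145 (minus strand), with an E-box that begins 147 bases before the start between 2 GC boxes. The Mylip stretch is chr13:45389492-45389741 (plus strand), with CCAAT boxes that begin 190, 108 and 67 bases before the start and a GC box at 44.
Hmgcs1: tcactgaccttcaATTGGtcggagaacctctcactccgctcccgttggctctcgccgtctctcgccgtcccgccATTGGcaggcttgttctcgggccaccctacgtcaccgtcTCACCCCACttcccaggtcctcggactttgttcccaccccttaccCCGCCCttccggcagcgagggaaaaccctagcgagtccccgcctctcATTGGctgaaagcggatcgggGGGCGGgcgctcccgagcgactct
Abca1: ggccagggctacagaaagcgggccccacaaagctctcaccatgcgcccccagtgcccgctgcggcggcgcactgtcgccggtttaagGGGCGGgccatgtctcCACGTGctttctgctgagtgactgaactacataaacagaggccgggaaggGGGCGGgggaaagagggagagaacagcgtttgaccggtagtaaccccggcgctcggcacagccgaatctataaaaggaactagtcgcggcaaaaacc
Mylip: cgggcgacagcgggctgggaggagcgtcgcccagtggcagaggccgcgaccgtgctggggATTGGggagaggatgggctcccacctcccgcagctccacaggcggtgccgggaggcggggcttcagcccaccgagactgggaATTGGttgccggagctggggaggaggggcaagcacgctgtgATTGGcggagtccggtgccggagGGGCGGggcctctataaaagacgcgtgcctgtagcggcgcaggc

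Library totals lay between 17504097 and 18751258 normalized reads, and replicates correlated at r between 0.976 and 0.978 over the tested genes. Foxp3, the lineage factor of Treg, was at 89.1, 92.2, 111 and 117 in the Treg libraries (WT, then KO) and at 0, 0, 2.06 and 8.29 in Teff, and 7 of 7 Treg markers were higher in Treg than in Teff in WT and in KO by limma. Ern1 had 377 and 399 in WT Treg, 326 and 359 in KO Treg, 559 and 616 in WT Teff, and 458 and 453 in KO Teff, and passed in neither cell type (adjusted p = 0.489 and 0.0902). Which part of Ern1 was removed is not given, so its level does not check the genotype. Macrophage markers were present in the sorted Treg: the 13 in the table, none at 0 in any library, summed to 32796 and 34739.5 in WT Treg and 21136 and 19260.1 in KO Treg, against 3352 and 1587 in WT Teff and 1236 and 1025 in KO Teff. Proliferation genes (20 in the table) summed to 18729.6 and 18557, 14515 and 15133, 15918 and 16194, and 10992 and 10199.5 in the same order of groups, and 2 of 20 were called lower in KO Treg and 12 of 20 in KO Teff, where 0.779% and 5.08% of all genes were. Growth signalling genes of activated T cells (14) summed to 45482 and 46549 in WT Treg, 38408 and 39141 in KO Treg, 36457 and 37542 in WT Teff, and 31584 and 28825 in KO Teff, and 2 of 14 were called lower in KO Treg and 3 in KO Teff. Dendritic cell markers (7) summed to 1113 and 2023 in WT Teff and 923 and 484 in KO Teff. In Treg they summed to 432 and 495 in WT and 399 and 376 in KO. B cell markers (8) summed to 674 and 828 in WT Teff and 396 and 408 in KO Teff. In Treg these had 912 and 900 in WT and 911 and 703 in KO. Natural killer and CD8 T cell markers (7) summed to 1526 and 1643 in WT Teff and 1708 and 1642 in KO Teff. The part of such cells in the values of the listed genes was not tested. In bulk RNA, fewer cells of a type and less RNA per cell cannot be told apart.

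The first comparison asked how the genes differed between KO and WT. In KO Teff the cholesterol exporter gene Abca1 was 2.02-fold higher than in WT, Mylip rose in both KO cell types, and Fdps, an enzyme of the mevalonate pathway, fell in KO Teff. No other gene of the list passed the test. Of the 18 sterol enzymes 16 had lower estimates in KO Teff, while Srebf1, Srebf2 and Fasn had differences between -0.10 and 0.01 in both cell types. By limma at an adjusted p below 0.05, 1 of 31 genes was called in Treg, higher in KO, where 1.45% of all 13358 genes were called (0.674% higher and 0.779% lower). In Teff 3 of 31 were called, 2 higher and 1 lower, where 6.92% of all genes were (1.84% higher and 5.08% lower). Differences in these paragraphs are KO minus WT on a log2(value + 1) scale, on which the added 1 shrinks the differences of weak genes.

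**Figure D1:**
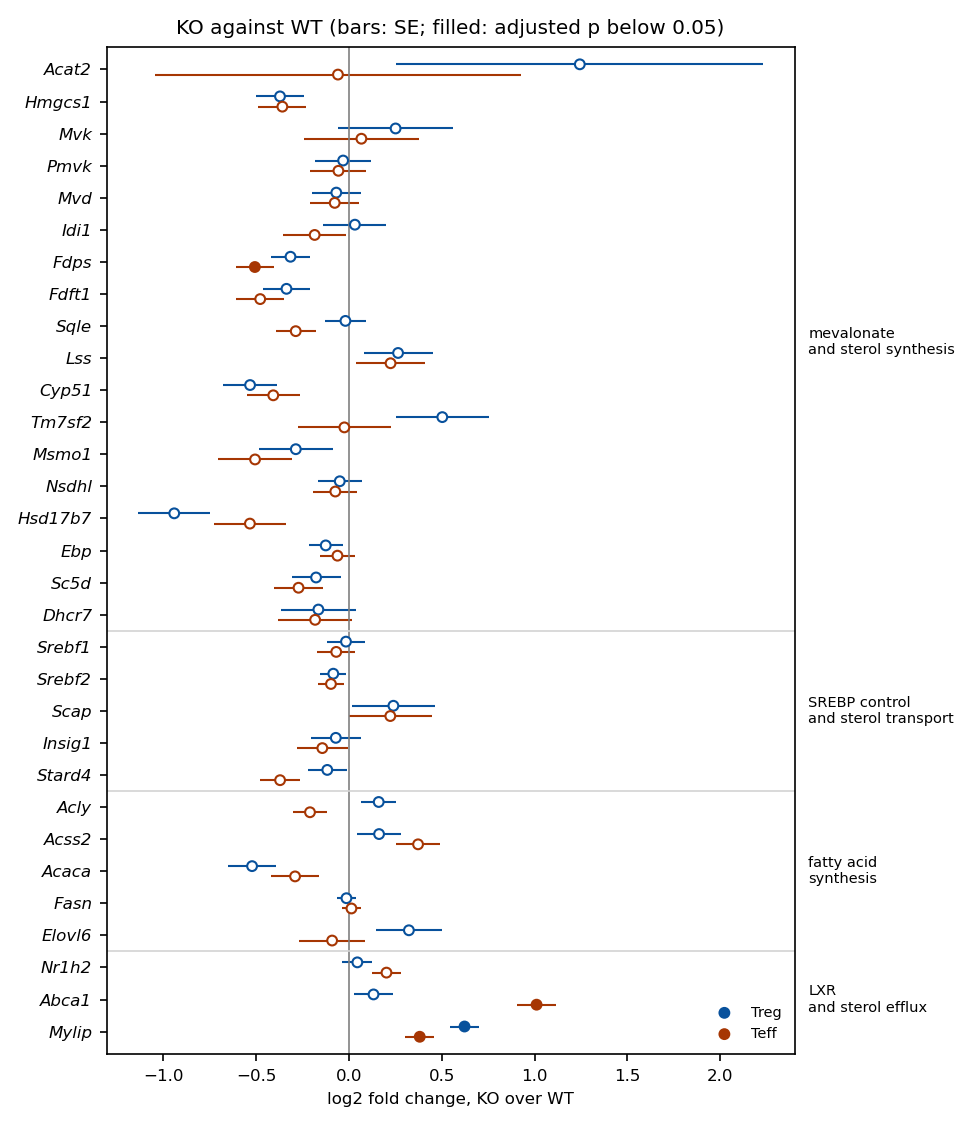
Log2 fold change of KO over WT for the 31 tested genes, grouped by role, in Treg (blue) and Teff (brown). Points are estimates over 2 libraries a group, bars are the standard error, and filled points passed limma at an adjusted p below 0.05: Mylip in both cell types, and Abca1 and Fdps in Teff.

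Abca1 (chr4:53030787-53159895 of GRCm38, minus strand) encodes the transporter that hands cholesterol out of the cell. It had 219 and 214 normalized reads in WT Teff and 446 and 429 in KO Teff, against 350.5 and 385 in WT Treg and 400.1 and 405 in KO Treg. WT Teff was the low group, and the other 3 groups lay within 350.5 and 446. The difference in Teff was 1.01 (SE 0.10, adjusted p = 0.00339 by limma), and in all 18 alternative settings it kept an adjusted p of 0.0400 or below. In Treg it was 0.13 (95% interval -0.11 to 0.38, adjusted p = 0.621). The difference between these effects was -0.88 (SE 0.15), with an unadjusted p of 0.000497 and an adjusted p of 0.125 by limma, so it did not pass. No 50-base stretch of its transcripts occurs in another annotated gene. Macrophages also express Abca1, and their part in its value was not tested. Their 13 summed markers were at 3352 and 1587 in WT Teff and 1236 and 1025 in KO Teff. In Treg these sums were 32796.5 and 34739.5 in WT and 21136.5 and 19260.1 in KO.

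Mylip (chr13:45389742-45412022, plus strand), whose product is that ubiquitin ligase, had 502 and 473 in WT Treg and 743 and 760.0 in KO Treg. In Teff it had 836 and 842 in WT and 1073 and 1114 in KO. The 4 groups did not overlap and ran from WT Treg through KO Treg and WT Teff to KO Teff. Mylip rose by 0.62 in KO Treg (SE 0.08, adjusted p = 0.0125 by limma) and by 0.38 in KO Teff (SE 0.08, adjusted p = 0.0306). Leaving out any 1 of the 4 Treg libraries ended the Treg call (adjusted p up to 0.108), and leaving out any 1 of the 8 libraries ended the Teff call, which held in 7 of 18 alternatives (up to 0.131). The difference between the effects, 0.24 (SE 0.11), did not pass (adjusted p = 0.516).

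The third tested gene of this arm was Nr1h2, which encodes the receptor LXR-beta. It had 2848 and 3032 in WT Treg, 3059.7 and 3007 in KO Treg, 3122 and 2731 in WT Teff, and 3496 and 3229.5 in KO Teff. Both KO Teff libraries lay above both WT ones, by 0.20 on the log2 scale (adjusted p = 0.201 by limma). Abcg1, the other classical export target, was listed at 0 in 1 WT library of each cell type and at 2.06 at most.

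**Figure D2:**
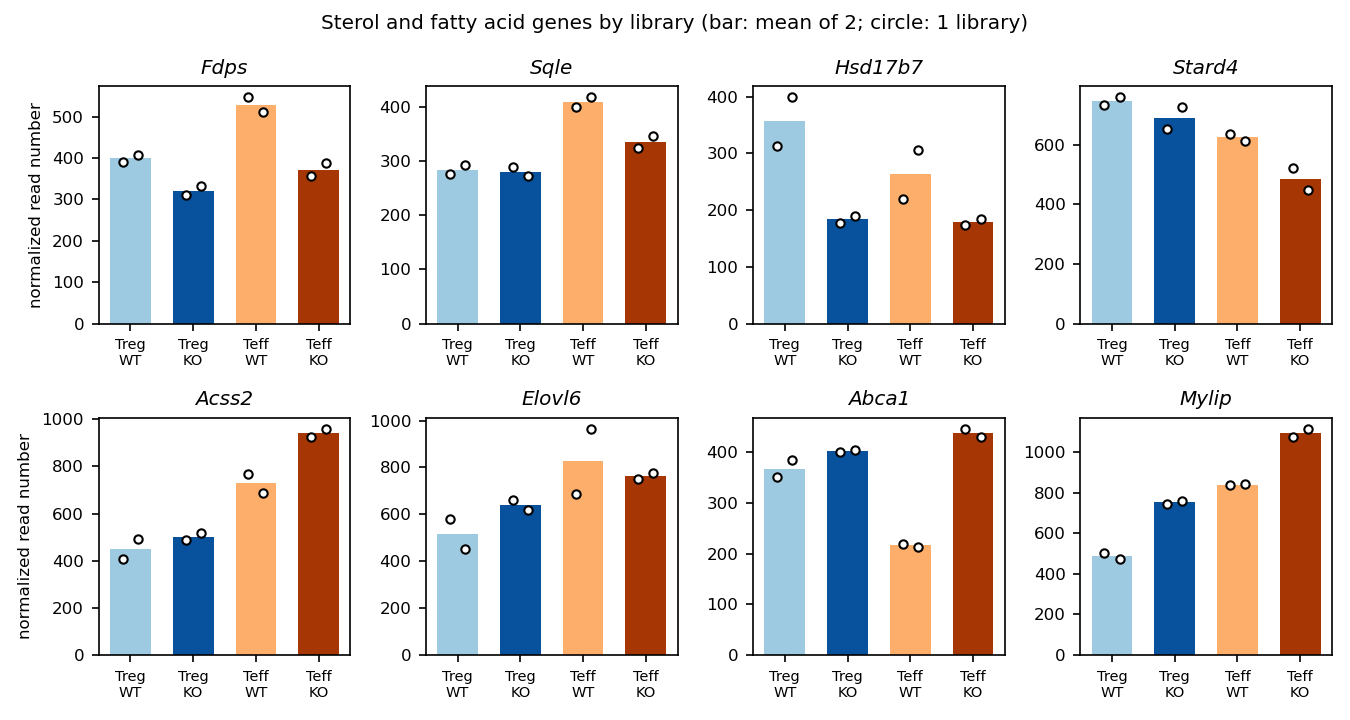
Normalized read number (vertical axis, from 0) of 8 genes in Treg WT, Treg KO, Teff WT and Teff KO. Bars are means of 2 libraries and circles single libraries; Abca1 is lowest in WT Teff (219 and 214), and the 4 groups of Mylip do not overlap.

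Among the 18 sterol enzymes 1 was called, in Teff. Fdps (chr3:89093588-89101959, minus strand) makes farnesyl pyrophosphate, the branch point to cholesterol, to protein prenylation and to other isoprenoids. It had 547 and 511 in WT Teff and 358 and 387 in KO Teff, and 391 and 407 in WT Treg and 310.4 and 331 in KO Treg. Both KO groups lay below their WT groups without overlap. Fdps fell by 0.51 in Teff (SE 0.10, adjusted p = 0.0314 by limma), a call that held in 7 of 18 alternatives and ended without any 1 of the 8 libraries and with quantile normalization (adjusted p up to 0.115). In Treg its difference was -0.31 (SE 0.10, adjusted p = 0.218). Of its 50-base windows 26.2% also occur in other annotated transcripts, mostly the same-strand gene Gm43738, so part of its value cannot be assigned with certainty.

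Upstream of Fdps, Hmgcs1, which condenses acetoacetyl-CoA into HMG-CoA, had 662 and 609.7 in WT Treg and 547 and 441 in KO Treg. In Teff it had 727 and 665 in WT and 514 and 572 in KO. Both KO groups lay below WT, with differences of -0.37 and -0.36 that did not pass (adjusted p = 0.244 and 0.162 by limma). Mvk, Pmvk and Mvd, the kinases and the decarboxylase that turn mevalonate into isopentenyl pyrophosphate, lay between -0.08 and 0.25 in both cell types and their libraries overlapped. Idi1, the isomerase of that product, had differences of 0.03 in Treg and -0.18 in Teff. Of its 50-base windows 25.3% occur in other transcripts, mostly Gm13502. Such windows made up 26.5% for Fdft1, 11.6% for Hmgcs1, 9.96% for Scap and 9.87% for Tm7sf2. Acat2 (acetoacetyl-CoA thiolase) was too variable to compare, at 4.98 and 59.7 in WT Treg, and 39.1% of its 50-base windows are shared with its neighbour family gene Acat3.

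Downstream of Fdps, Fdft1, the squalene synthase, had 661 and 598 in WT Treg and 506 and 490.4 in KO Treg, and 634 and 501 in WT Teff and 398 and 411 in KO Teff. In each cell type it was lower in both KO libraries than in either WT library, by -0.34 in Treg and -0.48 in Teff (adjusted p = 0.290 and 0.0747 by limma). Its exons overlap those of Ctsb on the other strand by 774 bases, and no step that marks the strand is named, so reads of the overlap cannot be told apart. Sqle, the squalene epoxidase and a rate-setting step of the pathway, had 400.0 and 417 in WT Teff and 324 and 345 in KO Teff, and 275 and 293 in WT Treg and 289 and 271 in KO Treg. The Teff groups did not overlap (-0.29, adjusted p = 0.182) and the Treg groups did (-0.02, 95% interval -0.27 to 0.24). Lss, which closes the sterol ring, had the opposite sign in both cell types (0.26 and 0.22, adjusted p = 0.578 and 0.547).

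Of the enzymes that convert lanosterol to cholesterol, Hsd17b7 showed the largest difference. This sterol 3-ketoreductase had 313 and 399 in WT Treg and 177 and 190.1 in KO Treg, and 219.7 and 306 in WT Teff and 174 and 184 in KO Teff. All 4 KO libraries lay between 174 and 190.1, below all 4 WT libraries, whose replicates were far apart. The differences, -0.94 (SE 0.19) in Treg and -0.53 (SE 0.19) in Teff, did not pass (adjusted p = 0.0740 and 0.170 by limma). The authors' deposited table gives Hsd17b7 -0.95 in Treg with an adjusted p of 0.0121 and -0.55 in Teff with 0.231.

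Cyp51, the lanosterol demethylase, had 650.3 and 591 in WT Treg and 415 and 442 in KO Treg, and 625 and 572 in WT Teff and 392 and 517 in KO Teff. It was lower in each KO library than in either WT library of its cell type, by -0.53 and -0.41, and did not pass (adjusted p = 0.146 and 0.154 by limma). Msmo1, a sterol methyl oxidase, had 443 and 433 in WT Teff and 287 and 330.2 in KO Teff (-0.51, adjusted p = 0.199), while in Treg the groups overlapped. Tm7sf2, a sterol reductase at low level, lay higher in KO Treg, at 111 and 132 against 104 and 69.6 (0.50, adjusted p = 0.423). The later enzymes Nsdhl, Ebp, Sc5d and Dhcr7 lay below 0 in both cell types, between -0.05 and -0.27, and none passed.

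Counted together, 13 of the 18 sterol enzymes had a log2 fold change below 0 in Treg (median -0.10) and 16 of 18 in Teff (median -0.18). Over all tested genes 51.7% and 52.7% were below 0, with medians of -0.01 and -0.02. Both KO libraries lay below both WT libraries for 7 of 18 in Treg, where 25.9% of all genes did, and for 10 of 18 in Teff, where 27.4% did. In the opposite direction it was 1 of 18 in each, where 22.8% and 22.4% of all genes did. The summed level of the 18 was 7204 and 7520.5 in WT Treg, 6633 and 6301 in KO Treg, 7909.7 and 7639.9 in WT Teff, and 6518 and 6746 in KO Teff, so the KO sums lay below the WT sums in both cell types. Over the alternative settings the number below 0 ranged from 11 to 14 in Treg and from 13 to 16 in Teff. The median in Treg was -0.23 without WT Treg replicate 1 and -0.05 without KO Treg replicate 2. In Teff it was -0.28 without WT Teff replicate 1 and -0.14 with quantile normalization. The summed proliferation, growth signalling and macrophage genes given above were also lower in the KO libraries of both cell types, and their part in these values was not tested.

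**Figure D3:**
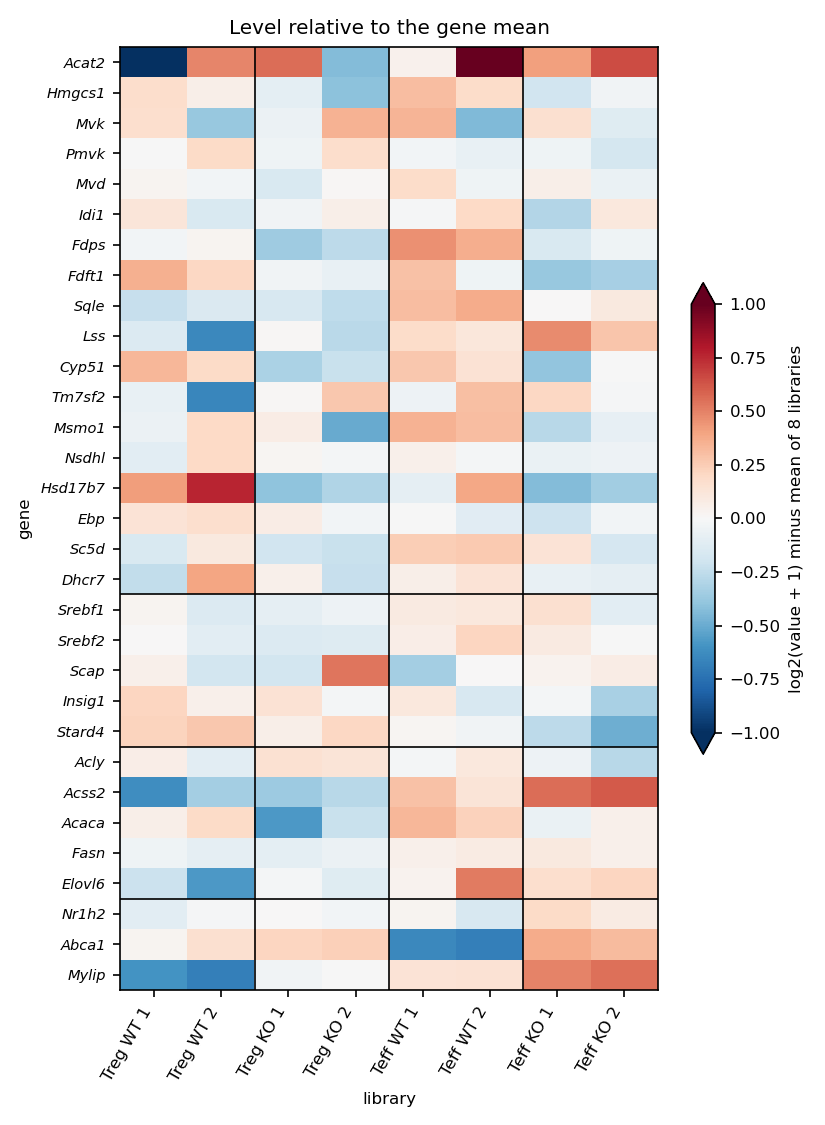
Level of each tested gene in each of the 8 libraries, as log2(value + 1) minus the mean of the gene over the libraries (red above, blue below; values beyond 1 either way have the end colours). Rows are grouped by role and columns by group; Fdps, Fdft1 and Cyp51 are bluer in the KO columns of both cell types, and Abca1 is blue in WT Teff.

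Of the genes that control the pathway, Srebf2 and Srebf1 differed little in mRNA. Srebf2, which encodes SREBP2, had 5787 and 5375 in WT Treg and 5239.9 and 5283 in KO Treg (-0.08, 95% interval -0.25 to 0.08), and 6042 and 6697 in WT Teff and 6141 and 5762 in KO Teff (-0.10, interval -0.26 to 0.07). Srebf1 had differences of -0.02 (interval -0.25 to 0.22) and -0.07 (interval -0.31 to 0.17). These intervals bound the change of mRNA, and cleavage of the proteins was not measured. Insig1, a sterol-dependent retention factor and itself an SREBP target, had -0.07 and -0.14 with overlapping libraries. Scap, the escort protein gene, had 1748 and 2863 in the 2 KO Treg libraries, a spread larger than its difference from WT (0.24, SE 0.22). In Teff it had 1561 and 1990 in WT and 2031 and 2085 in KO. That difference did not pass and was not bounded closely (0.22, 95% interval -0.30 to 0.75, adjusted p = 0.628 by limma).

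Stard4, which encodes a carrier of cholesterol between membranes, had 637 and 614 in WT Teff and 523 and 447 in KO Teff. In Treg it had 735 and 759 in WT and 654 and 726 in KO. KO was lower in both, by -0.37 in Teff (adjusted p = 0.0907 by limma) and -0.12 in Treg (adjusted p = 0.675), and neither passed.

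Of the fatty acid genes none was called in either cell type. Fasn, the synthase itself, had 4313 and 4171 in WT Treg, 4145 and 4262 in KO Treg, 4582 and 4684 in WT Teff, and 4752 and 4604 in KO Teff. Its differences were -0.01 (95% interval -0.13 to 0.11) and 0.01 (interval -0.11 to 0.13), the narrowest intervals of the 31 genes. Acaca, the acetyl-CoA carboxylase that commits carbon to fatty acids, had 787 and 861 in WT Treg and 506 and 648 in KO Treg (-0.52, SE 0.13, adjusted p = 0.121 by limma), and 949 and 888 in WT Teff and 719.8 and 783 in KO Teff (-0.29, adjusted p = 0.25). The authors' deposited table calls it lower in Treg (-0.52, adjusted p = 0.0471), and 30.4% of its 50-base windows occur in other transcripts, mostly Gm5182.

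Acly and Acss2 make the acetyl-CoA that both pathways use, from citrate and from acetate. Acly had 4731 and 4207 in WT Treg and 5031 and 4944 in KO Treg, and 4461 and 4853 in WT Teff and 4352 and 3720.4 in KO Teff. Its sign differed between cell types (0.16 and -0.21), and the difference between the effects, 0.37 (SE 0.13), had an unadjusted p of 0.0251 and did not pass (adjusted p = 0.387 by limma). Acss2 had 769.7 and 687 in WT Teff and 925 and 959.7 in KO Teff (0.37, SE 0.12, adjusted p = 0.118). Elovl6, which lengthens palmitate, had 578 and 450.2 in WT Treg and 661 and 617 in KO Treg (0.32, adjusted p = 0.474), and its Teff groups overlapped. For the difference of the KO effect between Treg and Teff, 0 of 31 genes were called by limma, 2 (Abca1 and Acly) had an unadjusted p below 0.05, where 0.0225% of all genes were called and 10.4% had such a p.

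The authors' deposited table, made with DESeq2, called 3 of the 31 genes in Treg (Hsd17b7 and Acaca lower, Mylip higher), where it called 3.28% of its genes. In Teff it called 3 (Fdps lower, Abca1 and Mylip higher), where it called 8.82%. Its log2 fold change for Abca1 in Teff was 1.01, and for Mylip 0.62 in Treg and 0.38 in Teff.

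The second comparison set Treg against Teff. In WT, 6 of 31 genes differed by limma, where 25.1% of all genes did (13.5% higher and 11.6% lower in Treg): Abca1 was higher in Treg, and Fdps, Sqle, Acss2, Elovl6 and Mylip were lower. In KO, 4 of 31 differed, where 26.9% did (15.7% higher and 11.2% lower): Stard4 and Acly were higher, and Acss2 and Mylip lower. Neither total over both directions exceeds the share of all genes. The 5 of 31 lower in WT Treg are a larger share than the 11.6% of all genes. The WT libraries are the same as those behind the KO comparisons, so these values are not independent of the ones above. The macrophage marker sums given above differ in the same libraries, with 13 of 13 markers called higher in WT Treg and 12 of 13 in KO Treg, and their part in these differences was not tested.

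**Figure D4:**
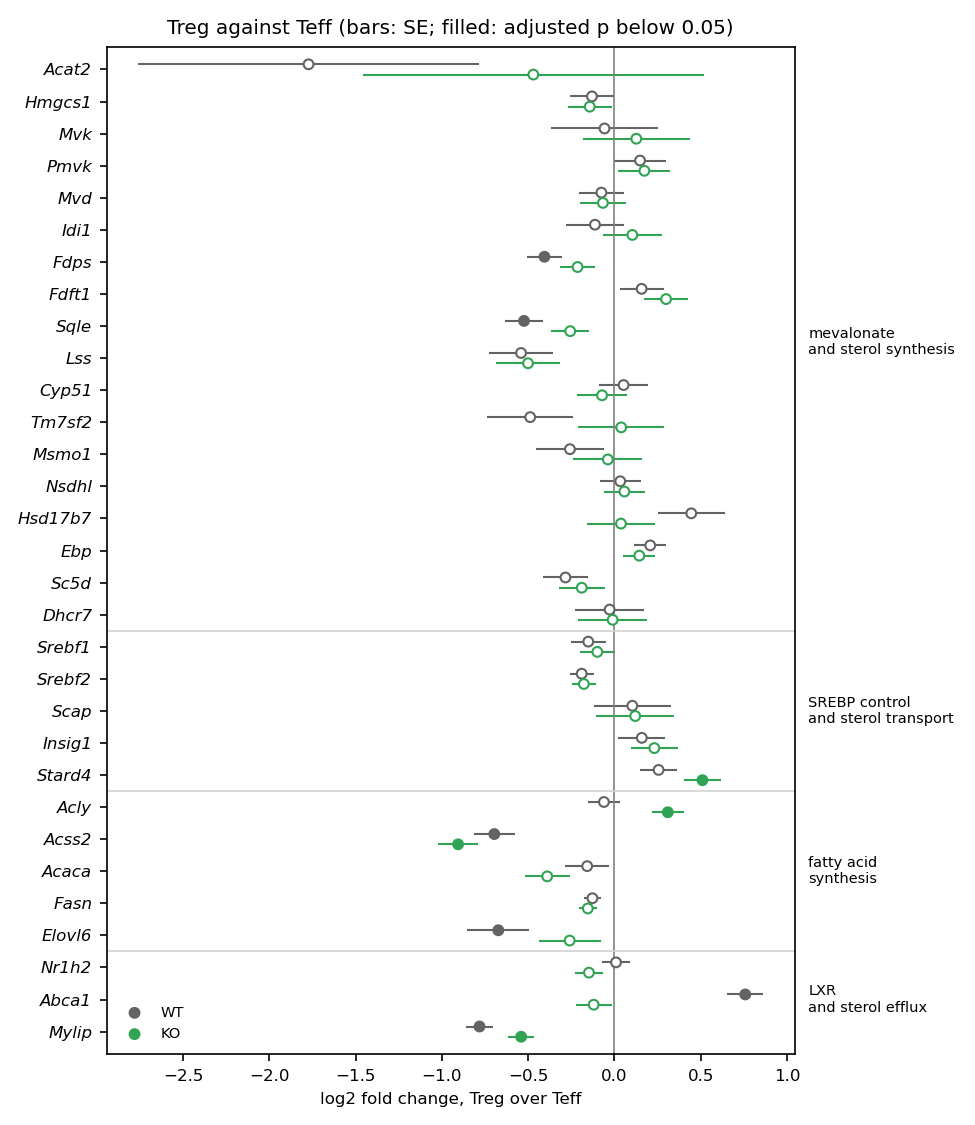
Log2 fold change of Treg over Teff for the 31 tested genes in WT (grey) and KO (green). Bars are the standard error and filled points passed limma at an adjusted p below 0.05; Acss2 and Mylip are filled to the left of 0 in both genotypes and Abca1 to the right in WT.

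Acss2, the acetate-dependent acetyl-CoA synthetase, showed the widest gap between cell types among the enzymes in KO. It had 407 and 494 in WT Treg against 769.7 and 687 in WT Teff, and 487 and 518 in KO Treg against 925 and 959.7 in KO Teff. Acss2 was lower in Treg by -0.70 in WT (SE 0.12, adjusted p = 0.00467 by limma) and -0.91 in KO (SE 0.12, adjusted p = 0.00122), in all 18 alternatives. Elovl6 was lower in WT Treg, 578 and 450.2 against 687 and 965 in WT Teff (-0.67, SE 0.18, adjusted p = 0.0313), a call that held in 9 of 18 alternatives and ended without WT Treg replicate 2, without WT Teff replicate 2 or without any 1 KO library (up to 0.164). Acly was higher in KO Treg than in KO Teff (0.31, SE 0.09, adjusted p = 0.0459), a call lost in 11 of 18 alternatives (up to 0.199), among them those without either KO Treg library, KO Teff replicate 2 or any single WT library. Fasn was within 0.16 of equal in both genotypes (-0.13 and -0.15, adjusted p = 0.113 and 0.0613).

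Of the sterol enzymes, Sqle was lower in WT Treg (275 and 293 against 400.0 and 417; -0.52, SE 0.11, adjusted p = 0.0114 by limma), lost without WT Treg replicate 1 or WT Teff replicate 2 (up to 0.0685). Fdps was lower as well, 391 and 407 against 547 and 511 (-0.41, SE 0.10, adjusted p = 0.0263 by limma), a call that held in 12 of 18 alternatives. It was lost without any single WT library, with scaling to library totals and when the 2 WT groups were fitted alone. In KO neither Sqle nor Fdps passed, at -0.26 and -0.21 (adjusted p = 0.128 and 0.174 by limma). Lss lay lower in Treg in both genotypes, 361 and 253 against 451 and 430.5 in WT and 401 and 329.8 against 552 and 481 in KO (-0.54 and -0.50, adjusted p = 0.0752 and 0.0898). Stard4 was higher in KO Treg than in KO Teff, 654 and 726 against 523 and 447 (0.51, SE 0.11, adjusted p = 0.0109), lost without KO Treg replicate 2 or KO Teff replicate 2 (up to 0.0728).

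The LXR targets took opposite signs in WT. Abca1 was higher in WT Treg than in WT Teff (0.76, SE 0.10, adjusted p = 0.00184 by limma), and in KO its difference was -0.12 (adjusted p = 0.446). Mylip was lower in Treg in both genotypes, by -0.78 (SE 0.08, adjusted p = 0.000446) and -0.54 (SE 0.08, adjusted p = 0.00190). The 3 called differences of these genes held in all 18 alternatives. Apoe, another LXR target and an abundant macrophage transcript, had 5346 and 4855 in WT Treg against 547 and 229.8 in WT Teff. The part of macrophages in this difference was not tested. The LXR targets Lpcat3 (344 and 425 against 676 and 556) and Arl4c (3266 and 3057 against 8606 and 8341) lay lower in WT Treg.

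Levels of different genes can be compared only per length. Per kilobase of annotated exon in WT Treg, Nr1h2 (877), Acly (847) and Srebf2 (777) were the strongest, followed by Insig1 (449), Ebp (406) and Fasn (388). The weakest tested genes were Acat2 (12.7), Tm7sf2 (19.7), Lss (28.5) and Abca1 (35.5). The length is that of all annotated exons of a gene, so a gene with many long forms, such as Lss (10787 bases), is set low. Srebf1 had 311, and the 18 sterol enzymes lay between 12.7 and 406.

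Other genes of the same pathways were read from lists beyond the 37. In KO Treg none of their tested genes was called: 0 of 10 in further sterol and isoprenoid synthesis, 0 of 13 in sterol storage and trafficking, 0 of 9 LXR targets and receptors, 0 of 18 in fatty acid synthesis and 0 of 16 in fatty acid oxidation. At an unadjusted p below 0.05 by limma these held 2, 4, 2, 1 and 3 genes, where 14.7% of all genes had such a p. In KO Teff 4 were called, 1, 2, 1, 0 and 0 in the same order. Over all tested genes 1.45% were called in KO Treg and 6.92% in KO Teff.

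Npc2, which carries cholesterol out of the lysosome, rose in KO Teff, from 6301 and 5842 to 8285 and 8800.2 (0.49, SE 0.06, adjusted p = 0.00677 by limma), and lost the call, at 0.0519, in 1 of 18 alternatives, the fit of the 2 Teff groups alone. Gramd1b, a carrier of cholesterol from the plasma membrane to the ER, fell from 2976 and 3199 to 2356 and 1944 (-0.53, SE 0.10, adjusted p = 0.0277), lost without either WT Teff library, KO Teff replicate 2 or either KO Treg library (up to 0.129). Gramd1a, a relative of Gramd1b, had 11746 and 11904 in WT Teff and 13661 and 13032 in KO Teff (0.17, adjusted p = 0.0759 by limma). Smpdl3a, a phosphodiesterase gene listed with the LXR targets, fell from 3758 and 4178 to 2805 and 2709.8 (-0.52, SE 0.07, adjusted p = 0.00952), lost without KO Teff replicate 2 and when the Teff groups were fitted alone (up to 0.0546), so its sign in KO Teff was opposite to that of Abca1 and Mylip. Fdxr, the ferredoxin reductase of mitochondrial sterol hydroxylation, fell from 527 and 487 to 378 and 376 (-0.42, SE 0.09, adjusted p = 0.0378), a call held in 5 of 18 alternatives and lost without any single library (up to 0.146).

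Of the remaining LXR targets, Lpcat3, a phospholipid acyltransferase, had 676 and 556 in WT Teff and 831 and 959 in KO Teff (0.54, SE 0.15, adjusted p = 0.0805 by limma). Arl4c, a small GTPase gene, had 8606 and 8341 in WT Teff and 8288 and 8881 in KO Teff (0.02, adjusted p = 0.902). Of the 9 genes of that list 5 lay above 0 and 4 below in Teff (median 0.02), and 2 above and 7 below in Treg (median -0.20). Between cell types, 6 of the 9 differed in WT, 4 higher and 2 lower in Treg, where 13.5% and 11.6% of all genes were. The macrophage marker sums given above were also lower in KO Treg than in WT Treg, and higher in Treg than in Teff. Their part in these counts was not tested.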

How the data were processed

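Poly(A)-selected RNA of 8 libraries was read as 50-base single-end reads, per the labels' protocols, which name no strand or molecular identifier step. The submitters' processing notes name Salmon 0.14.1, DESeq2 1.28.1, Trim Galore 0.4.4, R 4.0.3 and the genome mm10. They do not state the step from transcripts to genes. The signal values that the authors deposited, 1 column for each library, are normalized reads, neither whole numbers nor scaled to length. A test for counts was therefore not used. Log2 fold changes and adjusted p-values of the authors are in the deposited table too, and are called theirs where quoted.

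Groups came from the cell type and genotype labels. Here, genes that reached 10 in 2 or more libraries entered as log2(value + 1) a test with limma 3.58.1 (trend, robust; R 4.3.3), in 1 fit of 4 groups with 4 residual degrees of freedom and 5 contrasts, with Benjamini-Hochberg adjustment over 13358 genes in each and calls at 0.05. The fit was tested on simulated data. Alternatives varied the pseudocount, filter, scaling, shrinkage, groups fitted, replicate block and single libraries. The 37 genes and the other lists were chosen with earlier results of these data known. Every gene of the 37 could be named; of each other list, up to 4 with the smallest p for genotype and 2 more for cell type. Another list, of SREBP control and sterol uptake, is not reported here. Positions are of GENCODE M21 (GRCm38), where 30 of 33 identifiers had the same version. Shared 50-base windows were counted over its transcripts. Tables and figures used Python 3.11.15, pandas 2.3.3 and matplotlib 3.10.9.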

Additional observations from a re-analysis of the deposited data

How the results depend on the processing

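Precision rests on 2 libraries per group and 4 residual degrees of freedom. Library totals were nearly even, but they are sums of normalized reads and do not show the sequencing depth. The 41 differences of listed genes recomputed under the alternatives had an unadjusted p below 0.05 by limma or a call in some setting. None changed sign, which this choice made likely. Of their recomputed values 672 stayed on their side of the threshold, 56 lost a call and 8 gained one. The 18 sterol enzymes were not chosen by p, though their list was drawn up with earlier results of these data known. Among them the number with a negative difference did vary. For KO against WT it ranged from 11 to 14 in Treg and from 13 to 16 in Teff. Called in all 18 alternatives were Abca1 for KO against WT in Teff and, between cell types, Abca1 in WT and Acss2 and Mylip in both genotypes.

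For KO against WT in Treg, 194 of all genes were called, 114 with the replicate block and 43 to 192 when 1 library was left out, and 1 listed gene, 0 to 1 without 1 library. In Teff 924 were called, 177 when the 2 groups compared were fitted alone, 571 with plain empirical Bayes shrinkage and 350 to 639 without 1 library. The 3 listed genes called there became 1 (Abca1) with the 2 groups alone, with the replicate block and without any 1 library. For the difference of the effects, 3 of all genes were called, 7 with a pseudocount of 4, 5 without the filter, 5 with equal totals, 11 with plain shrinkage and 0 to 3 without 1 library. Treg against Teff gave 3357 in WT (2086 to 3308 without 1 library) and 3597 in KO (2356 to 3561), with 6 (3 to 5) and 4 (2 to 4) listed genes. With a Treg or Teff library left out, its lone partner is assumed to vary like the other groups.

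Replicate numbers gave no sign of pairing: the difference between replicates 1 and 2 correlated between groups at r from -0.04 to 0.06 over genes. Such a correlation cannot exclude that libraries of different groups share a mouse. The median of the sterol enzymes in KO Treg against KO Teff, -0.02, ranged from -0.14 with quantile normalization to 0.05 with equal totals. The scalings moved the median of all genes by at most 0.08. The cause of these changes was not tested.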
